A study of Homo sapiens with 5 samples.

Results

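The genes described here are 36 chaperones and regulators of protein folding in the endoplasmic reticulum (ER), the cytosol and mitochondria, chosen by name from a fixed list. All 36 names were among the 27992 gene names of the deposited count table. Of these, 21 act in or report on the ER and 15 belong to the cytosol or mitochondria. Levels were measured by RNA sequencing in U2OS, a human osteosarcoma cell line, with 1 library per group. The YFP-high, YFP-medium, YFP-low and YFP-negative libraries came from cells with pTRIPZ-YFP-ER-E2F1, a construct in a doxycycline-inducible vector that couples YFP and a part named ER, read here as the oestrogen receptor part that OHT activates, to the transcription factor E2F1. Flow cytometry sorted these cells by YFP, so the 4 libraries are parts of 1 cell population and not separate lines, and whether it descended from 1 clone is not stated. The remaining library, parental, is U2OS that lacks the construct. For all 5 libraries the labels give 8% fetal bovine serum and 500 ng/ml doxycycline for 48 h, with 90 nM OHT added for another 20 h, so no group lacked either agent. The series addresses how the E2F1 level relates to cell fate.

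As background, most secreted and membrane proteins fold in the ER with the help of the HSP70 BiP (HSPA5), the HSP90 GRP94 (HSP90B1), disulfide isomerases and the lectins calnexin and calreticulin. When unfolded proteins accumulate, the sensors IRE1 (ERN1), ATF6 and PERK raise the production of these chaperones and of the machinery that returns failed proteins to the cytosol for degradation, in part through the factor XBP1. In the cytosol, HSP70 and HSP90 with their cochaperones hold and fold client proteins, and heat shock factor 1 (HSF1) switches on the inducible members under heat or other stress.

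Gene reads numbered 70.7 M to 76.5 M per library. E2F1 itself was at 86.1 (parental), 106 (YFP-negative), 163 (YFP-low), 361 (YFP-medium) and 996 CPM (YFP-high), so its order followed the gates. CPM here are counts per 1000000 gene reads after TMM scaling. Whether reads came from the construct or the endogenous gene cannot be told. Of the markers of the labelled cell type, SPARC, COL1A1 and VIM lay at 749 CPM or above in every library and RUNX2 between 32.5 and 50.7 CPM, while SP7 and COL1A2 were at or under 0.40 CPM. CDKN2A and TERT, known to be silent in this line, were at or under 0.08 CPM, as was the leukocyte gene CD3E, with PTPRC and CD14 at or under 0.60 CPM. Of 4 epithelial markers 1, EPCAM, was higher in YFP-high, with 11.5 CPM against 3.27 CPM in YFP-negative. The others, CDH1, KRT5 and KRT14, had 2.52, 0.0939 and 0.0939 CPM in YFP-high, against 5.13, 0.288 and 0.599 CPM in YFP-negative. The median log2 ratio of YFP-negative to parental cells was -1.22 over the 4 epithelial markers. It was -0.49 over 5 osteoblast and mesenchymal markers and -0.01 over all analysed genes. The part of these markers in the results was not tested.

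Promoter windows of 33 of the 36 genes were matched in RefSeq (GRCh38.p14) and searched for elements known from folding stress. The sites are shown because genes with the same kind of element had ratios on both sides of no change in the results that follow. The ER stress response element, CCAAT and CCACG with 9 free bases between them, searched on both strands as were all elements, was found in 7 of 33 genes, against 0.0769% of all 35116 windows and 0.151% of the analysed genes that have a window. Its fixed letters are in capitals and the spacer in lower case.
CALR (chr19:12938384-12938402, minus strand): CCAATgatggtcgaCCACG
CANX (chr5:179698778-179698796, plus strand): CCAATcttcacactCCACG
CRELD2 (chr22:49918554-49918572, minus strand): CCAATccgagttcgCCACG
HSP90B1 (chr12:103930321-103930339, minus strand): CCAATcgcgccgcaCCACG
HSP90B1 (chr12:103930216-103930234, plus strand): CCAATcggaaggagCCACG
HSPA5 (chr9:125241391-125241409, minus strand): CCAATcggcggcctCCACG
PDIA6 (chr2:10812853-10812871, minus strand): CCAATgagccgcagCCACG
XBP1 (chr22:28800603-28800621, minus strand): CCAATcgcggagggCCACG

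A second form, ATTGG and CCACG with 1 free base between them, was searched after the first had been seen. It was found in 3 of 33 genes (HERPUD1, HYOU1 and SDF2L1), against 0.0541% of all windows and 0.141% of the analysed genes that have a window. The heat shock element, GAA, TTC and GAA with 2 free bases between neighbours, was found in 6 of 33 genes. It was in 0.490% of all windows and 0.492% of the analysed genes that have a window. Its fixed letters are again in capitals.
DNAJA1 (chr9:33025276-33025288, plus strand): GAActTTCcaGAA
HSP90AA1 (chr14:102087120-102087132, plus strand): GAAccTTCcgGAA
HSP90AB1 (chr6:44247831-44247843, minus strand): GAAgcTTCcaGAA
HSP90AB1 (chr6:44247778-44247790, minus strand): GAAtcTTCcaGAA
HSPA6 (chr1:161524466-161524478, minus strand): GAActTTCgcGAA
HSPA8 (chr11:123062354-123062366, minus strand): GAAagTTCcaGAA
HSPA8 (chr11:123062179-123062191, plus strand): GAAccTTCcaGAA
HSPD1 (chr2:197500068-197500080, minus strand): GAAagTTCtgGAA
HSPD1 (chr2:197500073-197500085, plus strand): GAActTTCcaGAA

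Sites of E2F, searched as TTTCCCGC, TTTCGCGC, TTTGCCGC and TTTGGCGC, were found in 1 of 33 genes, ATF6, against 6.48% of the analysed genes with a window. A match is a description of the letters and not evidence of binding, and the windows reach only 250 bases before and 50 after a start. Whole windows before the start follow for 5 genes to which the results return, with the elements in capitals, as their reverse complement where they lie on the other strand: CRELD2 (chr22:49918384-49918633, plus strand), HSPA5 (chr9:125241344-125241593, minus strand), HSPA6 (chr1:161524290-161524539, plus strand), HSP90AA1 (chr14:102087045-102087294, minus strand; 1 of its 2 listed starts) and HSP90AB1 (chr6:44247693-44247942, plus strand; 1 of its 3 listed starts).
CRELD2: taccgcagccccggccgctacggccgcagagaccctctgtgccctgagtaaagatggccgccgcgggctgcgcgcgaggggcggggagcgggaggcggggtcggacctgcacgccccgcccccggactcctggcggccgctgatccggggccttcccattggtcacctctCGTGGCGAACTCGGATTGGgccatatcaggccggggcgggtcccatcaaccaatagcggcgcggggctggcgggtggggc
HSPA5: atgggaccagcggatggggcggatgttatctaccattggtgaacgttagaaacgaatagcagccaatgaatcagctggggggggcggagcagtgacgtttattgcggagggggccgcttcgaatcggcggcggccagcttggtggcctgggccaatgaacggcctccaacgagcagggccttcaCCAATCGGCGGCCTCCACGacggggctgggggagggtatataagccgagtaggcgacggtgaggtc
HSPA6: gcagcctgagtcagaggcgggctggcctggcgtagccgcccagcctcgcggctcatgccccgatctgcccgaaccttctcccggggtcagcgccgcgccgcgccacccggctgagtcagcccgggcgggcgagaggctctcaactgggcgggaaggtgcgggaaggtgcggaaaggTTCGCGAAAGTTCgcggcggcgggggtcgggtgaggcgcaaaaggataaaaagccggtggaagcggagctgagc
HSP90AA1: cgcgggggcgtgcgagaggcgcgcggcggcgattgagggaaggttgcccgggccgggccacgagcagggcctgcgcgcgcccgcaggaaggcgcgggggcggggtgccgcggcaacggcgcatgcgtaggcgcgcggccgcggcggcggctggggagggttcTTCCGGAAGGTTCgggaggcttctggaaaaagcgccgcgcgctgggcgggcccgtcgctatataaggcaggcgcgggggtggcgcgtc
HSP90AB1: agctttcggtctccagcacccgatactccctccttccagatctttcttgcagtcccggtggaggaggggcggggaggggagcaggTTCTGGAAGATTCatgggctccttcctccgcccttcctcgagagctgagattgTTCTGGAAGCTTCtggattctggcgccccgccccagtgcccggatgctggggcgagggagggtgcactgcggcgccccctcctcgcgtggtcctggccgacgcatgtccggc

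Between YFP-high and YFP-negative, 4 chaperone genes were higher, 3 were lower and 28 were neither. CRELD2, DNAJB9, HSPA6 and HSP90AA1 were the higher ones, and SYVN1, EDEM1 and CRYAB the lower ones. A gene was called when its log2 ratio, with 0.5 CPM added to both levels, passed 2-fold and the exact 95% interval of its fold, which covers counting error only, left out 1. A single library stands for each group, so the groups could not be tested against each other and no replicate check exists. In bulk RNA fewer cells with a transcript and less transcript per cell cannot be told apart. HSPA1A had no reads in any library, so 35 of the 36 genes could be analysed. The 4 higher genes are 11.4% of these, where 20.5% of all 15109 analysed genes were called higher, and the 3 lower ones are 8.57%, where 11.3% of all were called lower. Both shares are below those of all genes. The ratios of 23 of the 35 genes (65.7%) stayed within 1.5-fold, against 45.3% of all genes. Their median log2 ratio was -0.09, beside -0.04 for all genes, with -0.10 for the 21 ER genes and -0.02 for the 14 analysed cytosolic and mitochondrial genes.

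**Figure D1:**
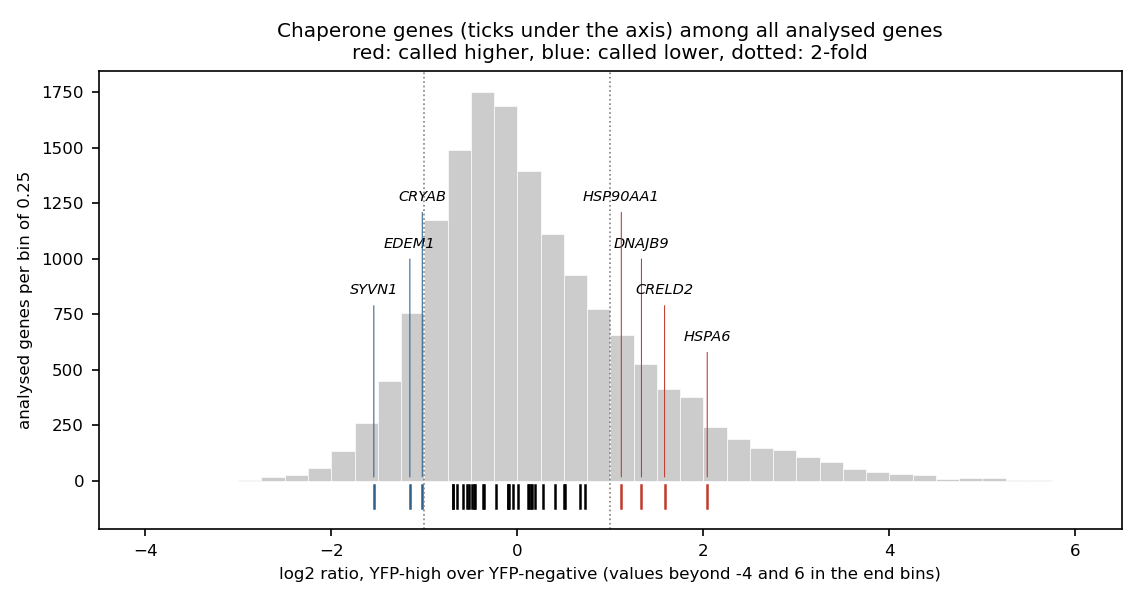
Log2 ratios of YFP-high over YFP-negative (x axis) for all 15109 analysed genes, as genes per bin (grey bars), with the 35 chaperone genes as ticks under the axis. SYVN1 at -1.54 and HSPA6 at 2.04 are the outermost ticks, and 28 ticks lie between the dotted 2-fold lines.

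At lower YFP none of the 35 genes passed the rule. In YFP-medium against YFP-negative the ratios ranged from -0.69 to 0.80, while 9.76% of all genes were called higher and 2.21% lower. In YFP-low they ranged from -0.35 to 0.54, where 2.11% of all genes were called higher and 0.0463% lower. Split by step, 0 of 35 were called in YFP-medium against YFP-low, where 2.71% of all genes were called higher and 0.185% lower. In YFP-high against YFP-medium 1 gene was higher (HSPA6) and 1 lower (SYVN1), with 9.25% and 1.33% of all genes called in those directions. No other gene passed the rule in a single step of YFP, and the call of HSPA6 in that step was lost with a pseudocount of 2 CPM.

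Order along YFP was also compared with the background. Of the 35, 10 had a CPM higher at each of the 3 steps between YFP-negative and YFP-high, and 11 one lower at each. Over all genes 24.1% were higher and 27.9% lower at each step, beside 28.6% and 31.4% of the chaperone genes. With total-count scaling 7 (20.0%) were higher and 20 (57.1%) lower at each step, where 17.3% and 40.2% of all genes were. With the deposited TPM, a unit corrected for transcript length, 9 (25.7%) were higher and 15 (42.9%) lower, where 20.8% and 32.8% of all genes were. DNAJB9, DNAJC3, MANF, CRELD2, HSPA6, HSPH1 and HSP90AA1 were higher at each step under all 4 scalings tried, and ERN1, XBP1, HSPA5, SDF2L1, EDEM1, HERPUD1, SYVN1, DNAJB1, HSP90AB1, HSPB1 and CRYAB lower.

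**Figure D2:**
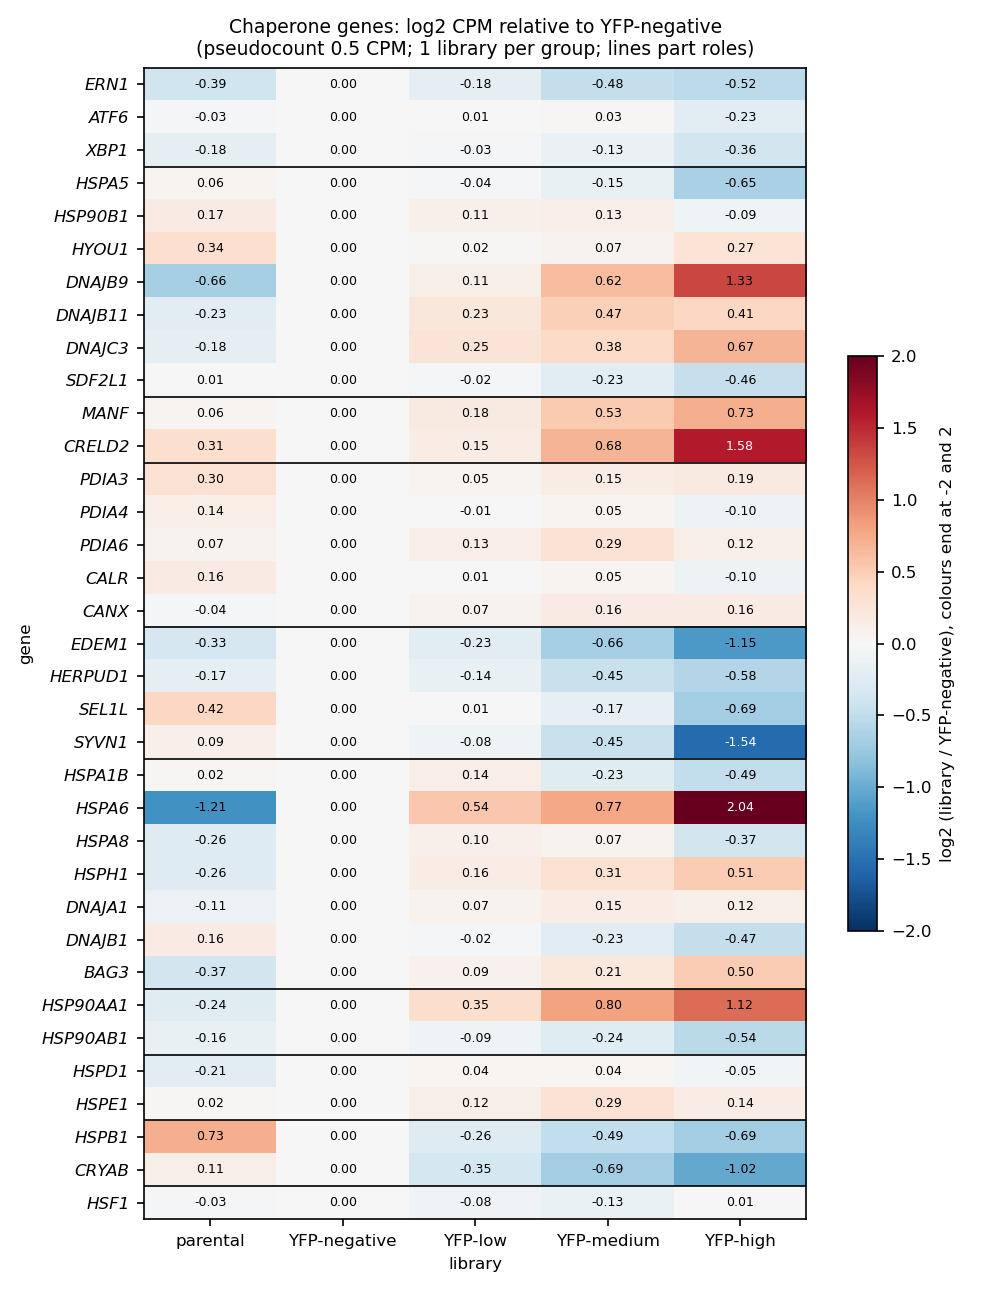
Log2 ratio of each library (columns) to YFP-negative for the 35 analysed genes (rows, grouped by role), in TMM-scaled CPM with 0.5 CPM added. Red is higher and blue lower than YFP-negative; in the YFP-high column CRELD2 (1.58) and HSPA6 (2.04) are the darkest red and SYVN1 (-1.54) the darkest blue.

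Among the sensors and factors that start the ER response, no gene passed the rule in YFP-high. ERN1, the sensor IRE1, had 6.92 (parental), 9.24 (YFP-negative), 8.09 (YFP-low), 6.51 (YFP-medium) and 6.27 CPM (YFP-high). XBP1, whose messenger RNA IRE1 splices, had 112 (parental), 127 (YFP-negative), 125 (YFP-low), 116 (YFP-medium) and 99.1 CPM (YFP-high). ATF6, a membrane-bound factor released by cleavage, had 90.0 (parental), 91.6 (YFP-negative), 92.2 (YFP-low), 93.2 (YFP-medium) and 78.1 CPM (YFP-high). All 3 had their lowest level among the sorted fractions in YFP-high, with log2 ratios to YFP-negative of -0.52, -0.36 and -0.23. The fold of ERN1 in YFP-high was 0.679 against YFP-negative (0.6002 to 0.767) and 0.906 against parental cells (0.795 to 1.03), where the interval spans 1. Gene counts do not show the splicing of XBP1 or the cleavage of ATF6.

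The ER chaperones proper parted into genes with more and with less transcript in YFP-high. CRELD2, an ER stress-inducible protein that is partly secreted, had 74.0 (parental), 59.5 (YFP-negative), 66.1 (YFP-low), 95.7 (YFP-medium) and 179 CPM (YFP-high). It was 3.01-fold higher in YFP-high than in YFP-negative (2.91 to 3.12) and 2.42-fold higher than in parental cells (2.34 to 2.50). DNAJB9, the BiP cochaperone ERdj4 that restrains IRE1, had 10.7 (parental), 17.2 (YFP-negative), 18.6 (YFP-low), 26.7 (YFP-medium) and 44.1 CPM (YFP-high), and was 2.57-fold higher (2.41 to 2.74). The parental library was lowest in DNAJB9, so that YFP-high exceeded it 4.12-fold (3.81 to 4.45). MANF, a further secreted protein that binds BiP, had 67.4 (parental), 64.7 (YFP-negative), 73.2 (YFP-low), 93.5 (YFP-medium) and 107 CPM (YFP-high), with a log2 ratio of 0.73 in YFP-high that missed the rule. DNAJC3, the cochaperone P58IPK that also inhibits PERK, had 96.9 CPM in YFP-high against 60.6 CPM in YFP-negative and a ratio of 0.67. DNAJB11, the cochaperone ERdj3, was at 193 CPM in YFP-high against 145 CPM in YFP-negative, with 202 CPM in YFP-medium and a ratio of 0.41.

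HSPA5, or BiP, the master ER chaperone and the usual marker of ER stress, did not go with them. It had 791 (parental), 761 (YFP-negative), 740 (YFP-low), 686 (YFP-medium) and 486 CPM (YFP-high). Its fold in YFP-high against YFP-negative was 0.638 (0.630 to 0.647), a log2 ratio of -0.65 that stays inside the 2-fold rule. SDF2L1, a partner in the BiP complex with ERdj3, had 40.5 CPM in YFP-high against 55.7 CPM in YFP-negative, a ratio of -0.46. HSP90B1 (GRP94) had 741 CPM in YFP-high against 788 CPM in YFP-negative and a ratio of -0.09. HYOU1, the nucleotide exchange factor of BiP, had 246 CPM in YFP-high against 204 CPM in YFP-negative and a ratio of 0.27, and -0.06 against parental cells.

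A ratio of transcripts within a library does not depend on the scaling, and the pairs given so were chosen after their values were seen. Reads of CRELD2 per read of HSPA5 were 0.369 in YFP-high and 0.0781 in YFP-negative, a 4.72-fold higher ratio (4.55 to 4.89). The parental library had 0.0936. The promoter windows of both genes hold the ER stress response element printed above. Among the other 5 genes with that element, XBP1 had a log2 ratio of -0.36, CALR of -0.10, HSP90B1 of -0.09, PDIA6 of 0.12 and CANX of 0.16. CRELD2 is the 1 gene of the 7 that passed the rule.

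Disulfide isomerases and lectin chaperones stayed within 1.5-fold in YFP-high. PDIA3, PDIA4 and PDIA6, which form disulfide bonds in client proteins, had log2 ratios of 0.19, -0.10 and 0.12 in YFP-high. CALR, the soluble lectin calreticulin, had 761 CPM in YFP-high against 818 CPM in YFP-negative. CANX, its membrane-bound counterpart calnexin, had 1152 CPM in YFP-high against 1032 CPM in YFP-negative. The sign is not firm for 3 of these 5: PDIA3, PDIA6 and CANX turned negative with total-count scaling. None of these 5 was called in any of the 3 comparisons with YFP-negative.

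All 4 genes of ER-associated degradation had less transcript in YFP-high than in YFP-negative, and 2 of them passed the rule. SYVN1, the ubiquitin ligase HRD1 at the centre of that pathway, had 42.9 (parental), 40.2 (YFP-negative), 38.05 (YFP-low), 29.2 (YFP-medium) and 13.5 CPM (YFP-high). It was 2.98-fold lower in YFP-high than in YFP-negative (2.77 to 3.22), and 2.17-fold lower than in YFP-medium (2.00 to 2.35). EDEM1, a lectin that hands over misfolded glycoproteins, had 146 (parental), 184 (YFP-negative), 157 (YFP-low), 117 (YFP-medium) and 82.4 CPM (YFP-high) and was 2.23-fold lower (2.17 to 2.31). EDEM1 was already at -0.66 in YFP-medium, where SYVN1 too was lower than in YFP-negative. Unlike SYVN1, EDEM1 missed the rule against the parental library, with a ratio of -0.82 in YFP-high. SEL1L, the partner that stabilises HRD1, had 257 (parental), 192 (YFP-negative), 193 (YFP-low), 171 (YFP-medium) and 119 CPM (YFP-high). Its ratio was -0.69 against YFP-negative and -1.11 against parental cells, where it was called lower (2.17-fold, 2.11 to 2.23). HERPUD1, a scaffold of the same ligase complex, had 56.3 CPM in YFP-high against 84.3 CPM in YFP-negative, a ratio of -0.58. The 4 ratios kept their negative sign under every scaling tried.

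SYVN1 overlaps MRPL49 in the current annotation, and it is not stated whether counting used strand. MRPL49 had 78.8 CPM in YFP-high against 85.7 CPM in YFP-negative, a smaller difference than that of SYVN1. Its part in the result was not tested. DNAJB9 and EDEM1, both known in mammals as targets of spliced XBP1, also moved apart. Reads of DNAJB9 per read of EDEM1 were 0.535 in YFP-high and 0.0934 in YFP-negative, a ratio 5.73-fold higher (5.34 to 6.15).

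**Figure D3:**
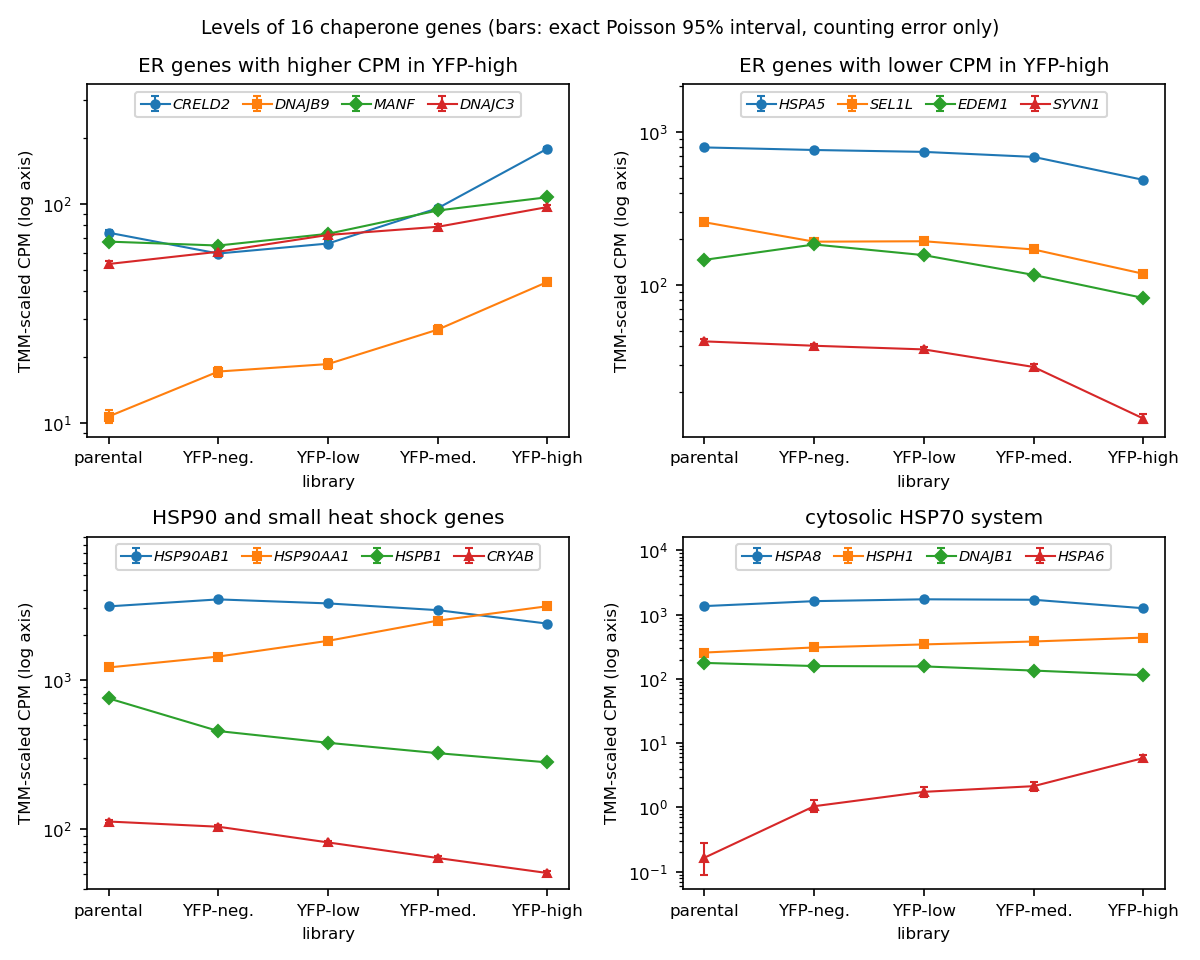
TMM-scaled CPM (log axis) of 16 chaperone genes in the 5 libraries, with exact 95% Poisson intervals that cover counting error only. CRELD2 and DNAJB9 climb to 179 and 44.1 CPM in YFP-high, SYVN1 drops to 13.5 CPM, and the lines of HSP90AA1 and HSP90AB1 cross between YFP-medium and YFP-high.

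The 2 cytosolic HSP90 genes diverged along YFP. HSP90AA1, the stress-inducible form, had 1207 (parental), 1428 (YFP-negative), 1819 (YFP-low), 2483 (YFP-medium) and 3100 CPM (YFP-high). Against YFP-negative it was 2.17-fold higher in YFP-high (2.16 to 2.19), and against parental cells 2.57-fold (2.55 to 2.59). HSP90AB1, the constitutive form and the most abundant transcript of the 36 by TPM, had 3093 (parental), 3444 (YFP-negative), 3238 (YFP-low), 2918 (YFP-medium) and 2372 CPM (YFP-high). Its log2 ratio in YFP-high was -0.54, inside the 2-fold rule. The call of HSP90AA1 was lost with total-count scaling and with TPM, but the balance of both genes does not depend on scaling.

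Reads of HSP90AA1 per read of HSP90AB1 were 1.31 in YFP-high and 0.415 in YFP-negative, a ratio 3.15-fold higher (3.12 to 3.18), and 0.390 in parental cells. Corrected for length, HSP90AA1 made up 17.3% (parental), 18.1% (YFP-negative), 23.1% (YFP-low), 31.3% (YFP-medium) and finally 41.1% (YFP-high) of the summed TPM of both genes. The sum itself was 4086 TPM in YFP-high and 4662 TPM in YFP-negative. So the share moved at each YFP step while the sum stayed within 1.5-fold. Both promoter windows printed above hold heat shock elements. Reads of HSP90AA1 can be shared with WDR20, which overlaps it in the current annotation and had 10.6 CPM in YFP-high and 14.3 CPM in YFP-negative.

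**Figure D4:**
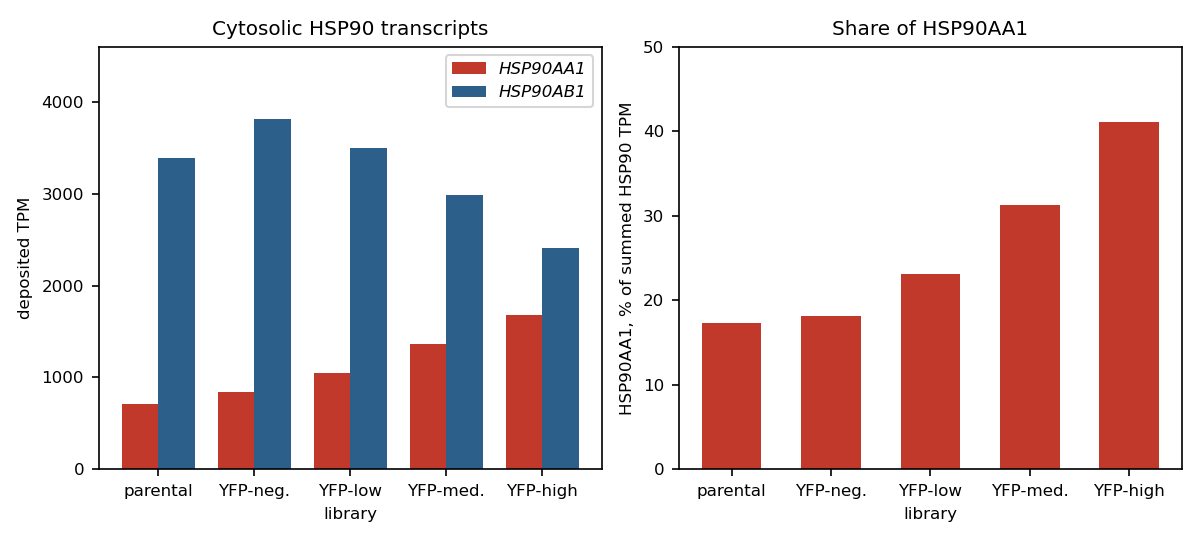
Left, deposited TPM of HSP90AA1 (red) and HSP90AB1 (blue) in each library; right, HSP90AA1 as a percent of the sum of both. The share goes up with YFP, with 41.1% in YFP-high and 18.1% in YFP-negative, near the 17.3% of parental cells.

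Of the 7 analysed genes of the cytosolic HSP70 system, HSPA6 was the 1 called in YFP-high against YFP-negative. HSPA6, a strictly stress-inducible HSP70 that mice lack, had 13 (parental), 87 (YFP-negative), 135 (YFP-low), 145 (YFP-medium) and 374 reads (YFP-high). In YFP-high this equals 5.85 CPM, against 1.04 CPM in YFP-negative, a 5.61-fold higher level (4.43 to 7.17) but still a low one. YFP-negative in turn was 6.33-fold higher than parental cells (3.51 to 12.4), the 1 call of 35 in that comparison, where 2.15% of all genes were called higher and 2.93% lower. That call too was lost with a pseudocount of 2 CPM. By fold, the ratio of YFP-negative to parental cells was thus near that along YFP, with overlapping intervals, but it rests on 13 parental reads. As log2 ratios with 0.5 CPM added, the values were 1.21 for YFP-negative against parental cells and 2.04 for YFP-high against YFP-negative. HSPA7, the near-copy of HSPA6, had 2 to 7 reads in any library, and reads shared by both are uncertain.

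HSPA8, the constitutive HSC70, had 1358 (parental), 1621 (YFP-negative), 1732 (YFP-low), 1704 (YFP-medium) and 1258 CPM (YFP-high). Its log2 ratio in YFP-high was -0.37, and its level in the other 3 sorted fractions lay between 1621 and 1732 CPM. HSPH1, the HSP110 exchange factor of HSP70, had 257 (parental), 309 (YFP-negative), 344 (YFP-low), 382 (YFP-medium) and 439 CPM (YFP-high) and a ratio of 0.51. Reads of HSPH1 per read of HSPA8 were 0.349 in YFP-high and 0.190 in YFP-negative, 1.83-fold higher (1.798 to 1.87). BAG3, another exchange factor that links HSP70 to autophagy, had 114 CPM in YFP-high against 80.4 CPM in YFP-negative and a ratio of 0.50. DNAJB1, the inducible HSP40, had 114 CPM in YFP-high against 158 CPM in YFP-negative and a ratio of -0.47, while DNAJA1, a constitutive HSP40, had 555 CPM in YFP-high against 512 CPM in YFP-negative and a ratio of 0.12 that changed sign with total counts and TPM. The heat shock targets HSPH1 and DNAJB1 thus had ratios of opposite sign.

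HSPA1A and HSPA1B, the main inducible HSP70 genes, could hardly be measured. They encode nearly the same protein from neighbouring copies, and reads without a unique alignment are in a class of their own in the table. HSPA1A was listed at 0 reads in all libraries, and HSPA1B had 116 reads in YFP-high and 229 in YFP-negative, a ratio of -0.49. These values say little about their true level. HSF1, the factor that drives these genes, had 209 (parental), 213 (YFP-negative), 202 (YFP-low), 194 (YFP-medium) and 214 CPM (YFP-high). Its ratio of 0.01 in YFP-high was among the smallest of the 35, with an interval of the fold of 0.984 to 1.03, and it turned negative with total counts and with TPM. DGAT1, which overlaps HSF1, had 147 CPM in YFP-high against 61.8 CPM in YFP-negative, and shared reads were not tested.

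Both genes of the mitochondrial chaperonin stayed within 1.5-fold of YFP-negative in every library. HSPD1, or HSP60, had 753 (parental), 873 (YFP-negative), 894 (YFP-low), 899 (YFP-medium) and 844 CPM (YFP-high). HSPE1, its lid HSP10, had 16.1 (parental), 15.9 (YFP-negative), 17.3 (YFP-low), 19.5 (YFP-medium) and 17.6 CPM (YFP-high). Their log2 ratios in YFP-high were -0.05 and 0.14. HSPE1 lies within the read-through gene HSPE1-MOB4, which is listed at 0 reads in all libraries, and the part of shared reads in its level was not tested. By TPM it had 65.5 in YFP-high and 65.1 in YFP-negative, while HSPD1 had 573 in YFP-high and 647 in YFP-negative.

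Both small heat shock genes had less transcript at each YFP step. CRYAB, or alpha B-crystallin, had 113 (parental), 104 (YFP-negative), 81.7 (YFP-low), 64.2 (YFP-medium) and 51.0 CPM (YFP-high). It was 2.04-fold lower in YFP-high than in YFP-negative (1.96 to 2.12), just past the rule at a log2 ratio of -1.02, and the call was lost with DESeq2 size factors. HSPB1, or HSP27, the second most abundant of the 36 by TPM in YFP-negative, had 750 (parental), 454 (YFP-negative), 379 (YFP-low), 323 (YFP-medium) and 280 CPM (YFP-high). Its ratio of -0.69 against YFP-negative missed the rule, while against parental cells it was called lower, 2.68-fold (2.63 to 2.72). About as much of that difference lay between YFP-negative and parental cells, at -0.73, as along YFP. HSPB2, a neighbour whose gene overlaps that of CRYAB in the annotation, had 0.313 CPM in YFP-high against 2.10 CPM in YFP-negative.

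Set against the parental library, 4 genes were higher and 4 lower in YFP-high, each 11.4% of 35, where 21.3% of all genes were higher and 14.9% lower. CRELD2, DNAJB9, HSPA6 and HSP90AA1 were higher in both comparisons, which share the YFP-high library. SYVN1 and CRYAB were lower in both, EDEM1 against YFP-negative alone, and SEL1L and HSPB1 against parental cells alone. With total counts EDEM1 was called lower against parental cells as well. No test of the difference between both baselines was possible. With the parental baseline YFP-low had 1 higher gene (HSPA6) and 0 lower, where 5.92% and 4.43% of all genes were called, and YFP-medium had 3 higher (DNAJB9, HSPA6 and HSP90AA1) and 1 lower (HSPB1), where 12.3% and 8.29% were. Ratios of YFP-high changed sign between the baselines for HYOU1, PDIA3 and HSPD1, all within 1.5-fold.

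By summed TPM the 36 genes together made up 13205 TPM in YFP-high and 15635 TPM in YFP-negative, out of a total of 1000000 in each library. HSPA1A and HSPA1B, which could hardly be measured, enter this sum and that of the cytosolic genes with their listed values. In TPM the median log2 ratio of YFP-high to YFP-negative was -0.16 over all genes and -0.20 over the analysed chaperone genes. The cytosolic and mitochondrial genes accounted for 8490 TPM in YFP-high and 10475 TPM in YFP-negative, and the ER genes for 4715 TPM in YFP-high and 5160 TPM in YFP-negative. In parental cells the whole sum was 15914 TPM. HSP90AB1 and HSPB1 had the largest decreases in TPM, and HSP90AA1 the largest increase. HSP90AB1 and HSPB1 had 2406 and 903 TPM in YFP-high, against 3817 and 1605 TPM in YFP-negative, and HSP90AA1 had 1680 TPM in YFP-high against 845 TPM in YFP-negative.

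Other genes of the folding pathways were taken from 12 lists with 182 analysed genes. In YFP-high against YFP-negative 16 (8.79%) were called higher and 8 (4.40%) lower, below the 20.5% and 11.3% of all genes. Their median log2 ratio was -0.12. Named genes are those of each list with the largest ratios and at least 5 CPM, and those just outside the rule are given with their values alone.

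In the ER, the isomerase list had 1 of 21 genes higher, PDIA2, a pancreas-type disulfide isomerase with 5.98 CPM in YFP-high against 0.108 CPM in YFP-negative. FKBP10 and FKBP14, collagen-folding prolyl isomerases, had ratios of -0.93 and -0.85. Of the other degradation genes, UBE2J1, the ubiquitin-conjugating enzyme that works with HRD1, had a ratio of 0.83 and UBXN4 of 0.81.

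Among 19 translocation genes 2 were higher and 0 lower, both encoding the channel subunit Sec61 alpha. SEC61A1 had 853 CPM in YFP-high against 416 CPM in YFP-negative (2.05-fold, 2.02 to 2.08), and SEC61A2 had 190 CPM in YFP-high against 34.2 CPM in YFP-negative (5.57-fold, 5.35 to 5.81). SPCS3, a signal peptidase subunit, had a ratio of 0.93. Of 19 N-glycosylation genes 1 was higher and 1 lower. STT3B, a catalytic subunit of the oligosaccharyltransferase, was 2.79-fold higher (2.73 to 2.84), whereas MOGS, the glucosidase that starts the trimming of the attached glycan, had 34.4 CPM in YFP-high against 92.8 CPM in YFP-negative, a ratio of -1.42. ALG2, a mannosyltransferase of glycan assembly, had a ratio of -0.88.

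None of the 9 genes of the PERK branch was called in YFP-high against YFP-negative, with a median of 0.11. Against parental cells 2 of the 9 were higher, TRIB3 at a log2 ratio of 1.14 and ATF3 at 1.43, where 21.3% of all genes were. Against YFP-medium 1 of the 9 was lower, PPP1R15A, where 1.33% of all genes were. ATF3, a stress-induced factor, had 66.8 CPM in YFP-high against 37.5 CPM in YFP-negative (ratio 0.82). PPP1R15A, or GADD34, which reverses the PERK signal, was highest in YFP-low and YFP-medium. It had 39.2 (parental), 72.2 (YFP-negative), 95.03 (YFP-low), 95.8 (YFP-medium) and 44.6 CPM (YFP-high). PPP1R15B, its constitutive relative, had a ratio of -0.43. Of 14 other sensor genes 2 were higher and 1 lower. NFYB, a subunit of the factor NF-Y that binds CCAAT, had 86.2 CPM in YFP-high against 20.5 CPM in YFP-negative (4.20-fold, 3.98 to 4.44). CREB3L4 was 2.36-fold higher (2.10 to 2.65), and CREB3L2, a related membrane-bound factor of secretory cells, was 3.24-fold lower (3.00 to 3.50).

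In the cytosol, the J-domain list had the most calls of the 12, with 4 of 19 higher and 3 lower. Over all analysed genes 20.5% were called higher and 11.3% lower. DNAJC21, a ribosome assembly factor, was 3.25-fold higher (3.17 to 3.33), and DNAJC9, a histone cochaperone, 2.69-fold (2.62 to 2.76). DNAJB5 had 18.1 CPM in YFP-high against 80.4 CPM in YFP-negative, 4.44-fold lower (4.17 to 4.73). Of 21 cochaperones 3 were higher and 1 lower. FKBP5, an HSP90 cochaperone and glucocorticoid target, had 303 CPM in YFP-high against 76.7 CPM in YFP-negative (3.94-fold, 3.83 to 4.06). BAG1, an HSP70 exchange factor, was 2.96-fold (2.83 to 3.10) and AHSA2 2.38-fold higher (2.27 to 2.49). AHSA1, the activator of the HSP90 ATPase, was the lower one, named after its value was seen, at -1.06.

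Of 6 other HSP70 genes HSPA12A alone was called, 2.15-fold higher (2.05 to 2.25), with HSPA13 at -0.91 and HSPA4 at -0.34. The small heat shock list had 1 of 8 genes higher and 2 lower. HSPB8, the BAG3 partner, had 20.7 CPM in YFP-high against 86.6 CPM in YFP-negative, a ratio of -2.04, and HSPB11, which belongs to the ciliary transport machinery despite its name, was 3.36-fold higher (3.24 to 3.48). HSPB2, with 2.10 CPM in YFP-negative, was the other lower gene. SERPINH1, the collagen chaperone HSP47, had a ratio of -0.75, and of -1.46 against parental cells. All 13 chaperonin TRiC and prefoldin genes were inside the rule, with a median of -0.16, led by PFDN2 at -0.63, CCT3 at -0.52 and PFDN1 at -0.41. All 12 other mitochondrial genes were inside it as well, with a median of -0.18 and values of -0.59 for GRPEL2, -0.50 for CLPB and 0.47 for AFG3L2.

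**Figure D5:**
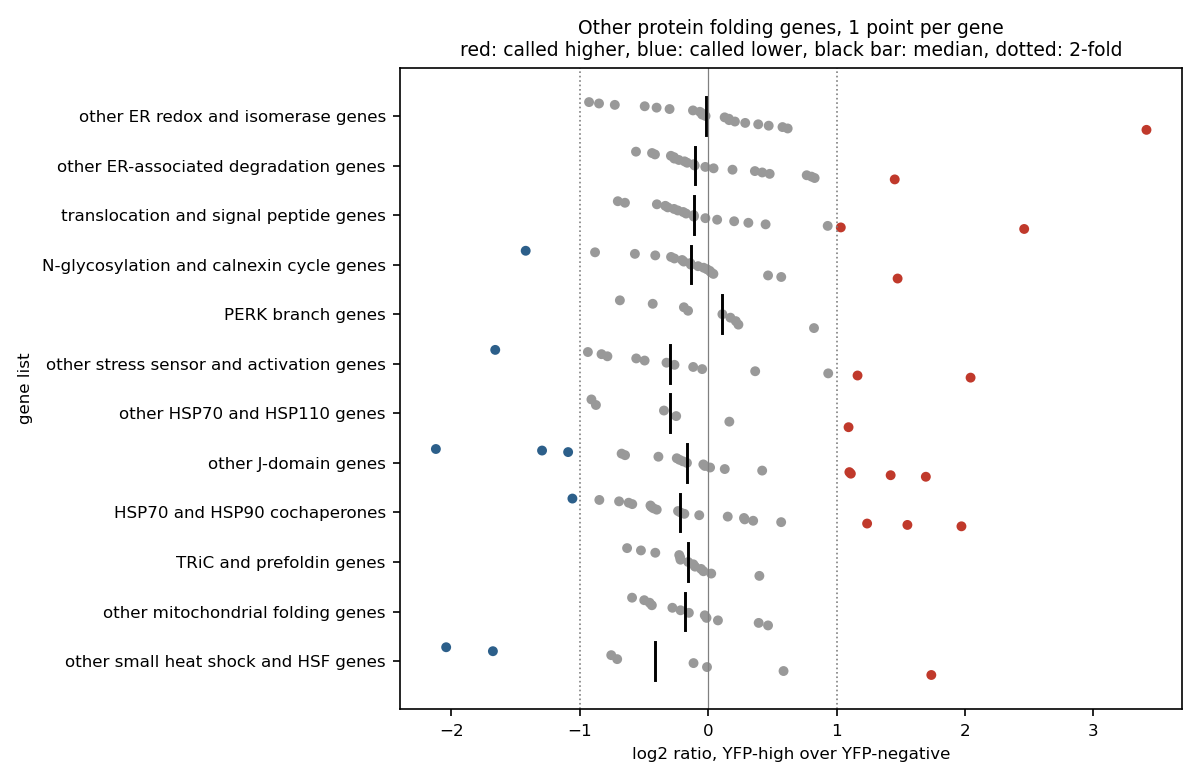
Log2 ratios of YFP-high over YFP-negative (x axis) for 182 other folding genes in 12 lists (rows), 1 point per gene, with the list's median as a black bar. Red and blue points are the 16 higher and 8 lower genes; medians lie between -0.41 for small heat shock genes and 0.11 for the PERK branch.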

How the data were processed

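Per the submitters' processing notes, HTSeq 0.6.0, HISAT2 2.0.3, Trimmomatic 0.36, bcl2fastq and CASAVA 1.8.2 were used with the build hg19. Order, settings, annotation and strand are not stated there. The authors deposited raw read counts per gene name and a table of TPM, which sums to 1000000 per library; which tool made it is not stated. Rows naming no gene were left out: the row named unknown held at most 0.00073% of reads, and ambiguous reads 4.06% to 4.33%.

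Counts were scaled with TMM in edgeR 4.0.16 (R 4.3.3) to CPM. The 15109 genes that reached 1 CPM in any library entered the analysis. A pseudocount of 0.5 CPM was added for log2 ratios, which understates changes of low genes, and none for folds. Their exact 95% intervals (Clopper-Pearson on both counts) and the Poisson intervals cover counting error only, and PCR copies are not independent molecules. Intervals of ratios between gene pairs are normal approximations on the log scale. The call rule was tried on simulated counts that held counting error only, so the trial does not cover variation between samples. No test across samples exists for single libraries. The alternatives tried were total counts, size factors of DESeq2 1.42.0, no filter, 5 CPM, a pseudocount of 2 CPM, TPM, 1.5-fold and the parental baseline.

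The members, lists and alternatives were chosen with earlier results of these data known. Given with all values were the members called in any comparison, the most abundant, the sensors with HSF1, and the paralogue and partner pairs; of each further list, up to 3 genes with the largest ratio and at least 5 CPM. Values of other genes named were added after they were seen. Some listed genes are not reported here. Overlapping gene names and promoter windows came from RefSeq (GRCh38.p14), a build other than that of the files, and were used for names and sequences only. The software was Python 3.11.15 with scipy 1.17.1, pandas 2.3.3, numpy 2.4.6 and matplotlib 3.10.9.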

Additional observations from a re-analysis of the deposited data

How the results depend on the processing

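In YFP-high against YFP-negative, 4 members higher and 3 lower became 3 and 3 with total counts and with the deposited TPM, where HSP90AA1 was lost, and 4 and 2 with DESeq2 size factors, where CRYAB was lost. The other 5 calls held under every scaling, filter and pseudocount tried. Over all genes the median log2 ratio shifted by -0.26 with total counts and by -0.12 with TPM; of all called genes 64.4% were higher with TMM, 45.7% with total counts and 56.0% with TPM. The sign was kept by 29 of 35 members with total counts and 32 with TPM. PDIA6, DNAJA1 and HSF1 changed sign under both, and PDIA3, CANX and HSPE1 with total counts alone. No called member changed sign under an alternative.

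With a 1.5-fold rule 6 members were higher and 6 lower of 35 in YFP-high against YFP-negative, where 29.3% and 25.4% of all genes were. In YFP-medium against YFP-negative 4 were higher and 2 lower (of all 15109 genes, 2866 and 1790), and in YFP-high against YFP-medium 3 and 1 (all genes 17.8% and 10.9%). In YFP-negative against parental 2 were higher and 1 lower (6.61% and 9.02%), and in YFP-high against parental 9 and 7 (30.1% and 28.1%). With the 2-fold rule and the parental baseline, YFP-low had 1 higher and 0 lower (all genes 5.92% and 4.43%). YFP-medium then had 3 higher and 1 lower (all genes 12.3% and 8.29%). With a pseudocount of 2 CPM the loss of HSPA6, a gene of few reads, left 0 higher both in YFP-high against YFP-medium and in YFP-negative against parental. No paired analysis was possible because each group has 1 library. Low read numbers of the genes themselves limit HSPA6, HSPA1B and ERN1, and 1 library per group limits all results.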
